A study of Homo sapiens with 6 samples.

Results

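The cyclin-dependent kinase (CDK) inhibitors are small proteins that hold back the kinases driving the cell cycle. The 8 genes examined here were taken by name from the deposited expression table of LNCaP, an established human line of androgen-sensitive prostate adenocarcinoma. Of these, 7 had a row among the 16311 genes listed and 1, CDKN1C, had none, so CDKN1C is not analysed here. RNA was sequenced from 2 groups of LNCaP cultures in RPMI1640 with 10% serum: 3 libraries of irradiated cells (cumulative 40 Gy, written FIR in the labels, an abbreviation left unexplained there) and 3 libraries of untreated cells. The study's title concerns cells of a neuroendocrine-like kind that arise after radiation. The interval between irradiation and harvest is not given in the sources used here.

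CDK inhibitors fall into 2 families. CIP/KIP proteins (p21 from CDKN1A, p27 from CDKN1B and p57 from CDKN1C) bind cyclin and kinase together and can inhibit the CDK2 complexes that carry cells through DNA replication, while INK4 proteins (p16 from CDKN2A, p15 from CDKN2B, p18 from CDKN2C and p19 from CDKN2D) bind CDK4 and CDK6 alone and keep them from D-type cyclins. CDKN3 belongs to neither family: it encodes a phosphatase that removes the activating phosphate from CDK2. CDKN1A is a well known target of the DNA damage response, and p16 and p21 are both used as markers of senescence.

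Libraries held 16542096, 15703483 and 16356183 reads over the listed genes in FIR cells and 18928571, 21004697 and 16805679 reads in untreated cells. All 10 listed prostate luminal markers had a row, with a summed level of 8732 to 9674 CPM in FIR libraries and 8361 to 9108 CPM in untreated libraries (CPM is a gene's reads scaled to a library of 1000000). In FIR cells 7 of them were called higher, among them KRT8 (log2 fold change 0.80) and TMPRSS2 (0.49), KLK3 (-0.37) and HOXB13 (-0.31) were called lower and 1 was not called. Over all genes 25.4% were called higher and 23.4% lower, by the rule given below. All 5 immune markers lacked a row. Of 5 fibroblast markers COL1A1 and COL3A1 had one, with a summed level of 7.04 to 11.9 CPM in FIR libraries and 23.4 to 25.6 CPM in untreated libraries. COL1A1 was lower and COL3A1 higher in FIR cells. Of 4 endothelial markers only VWF had a row, at 5.08 to 6.22 CPM in FIR libraries and 28.8 to 40.6 CPM in untreated libraries, while PECAM1, CDH5 and KDR had none. The part of these marker differences in the results that follow was not tested. The sample titles mark the libraries of each group BR1, BR2 and BR3, without spelling out BR or saying how cultures were separated, so the tests weigh differences only against library-to-library spread, which may be technical. No spike-in is described, so every change is relative to the rest of each library's RNA.

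Of the 7 measured genes, 2 rose in FIR cells (CDKN1A and CDKN2B), 4 fell (CDKN2A, CDKN2C, CDKN2D and CDKN3) and CDKN1B did not pass. These calls come from edgeR's quasi-likelihood test with Benjamini-Hochberg adjustment over all 16311 genes and a threshold of 0.05. By that rule 48.7% of all genes were called, 25.4% higher and 23.4% lower, so a call alone does not set these genes apart. Log2 fold changes of the 7 genes ran from -5.02 to 3.01 with a median of -0.46, where the median over all genes was 0.01. The 4 genes CDKN1A, CDKN2B, CDKN2C and CDKN3 had an adjusted p below the threshold and a log2 fold change of at least 2 in size, which 5.22% of all genes had. Each of the 7 genes stood at 0.648 CPM or more in every library.

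**Figure D1:**
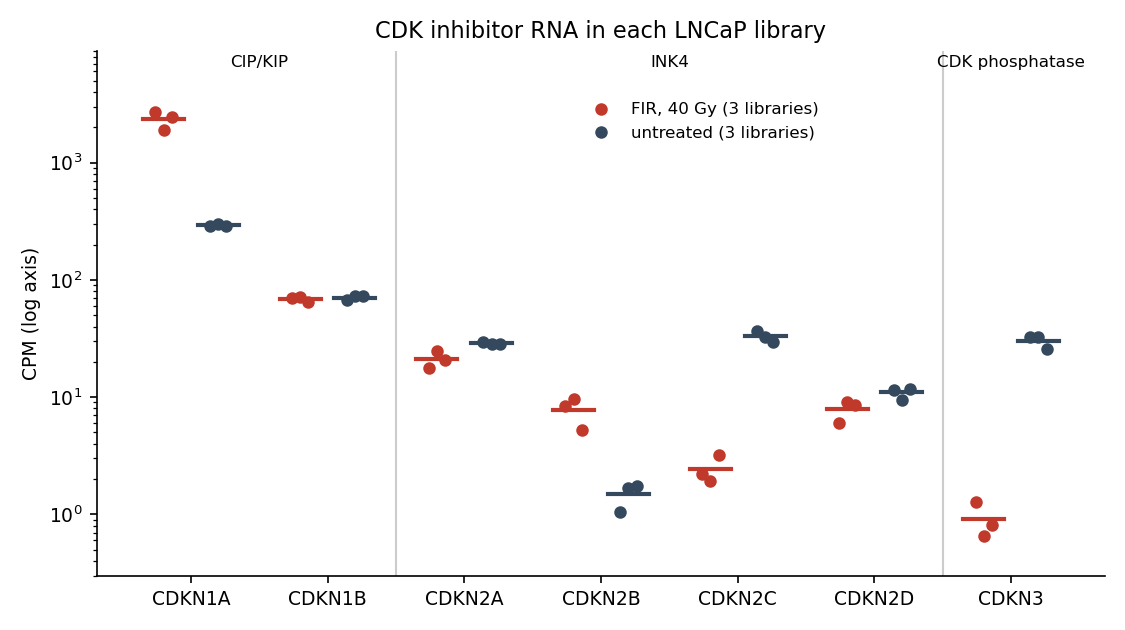
CPM of each measured CDK inhibitor on a log axis, with FIR libraries left of untreated libraries, 1 point per library and a bar at the mean of 3. CDKN1A lies highest in both groups, CDKN2B is higher in FIR libraries, CDKN2C and CDKN3 are far lower in them, and the groups of CDKN1B overlap.

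Sequence just upstream of the starts of the genes that moved most is shown because these members form a rising pair and a falling pair. The stretches are RefSeq sequence on GRCh38.p14, read in the direction of the gene, within 250 bases upstream of a RefSeq start and outside every exon listed in the table. Capitals mark matches on either strand to the GC box GGGCGG, the E-box CACGTG or the word TTTGAA, the core of the CHR element found in many mitotic promoters.
CDKN1A, chr6:36678464-36678657, plus strand: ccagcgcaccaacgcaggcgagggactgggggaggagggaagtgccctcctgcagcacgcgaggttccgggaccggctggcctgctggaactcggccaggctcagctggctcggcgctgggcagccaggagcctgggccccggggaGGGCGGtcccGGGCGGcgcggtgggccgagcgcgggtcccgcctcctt
CDKN2B, chr9:22009306-22009555, minus strand: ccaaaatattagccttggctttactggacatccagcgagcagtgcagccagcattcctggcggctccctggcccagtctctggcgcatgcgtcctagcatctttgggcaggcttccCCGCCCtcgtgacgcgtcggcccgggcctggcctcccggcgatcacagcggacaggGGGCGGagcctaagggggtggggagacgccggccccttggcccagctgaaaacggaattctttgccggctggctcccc
CDKN2C, start at 50960745, chr1:50960495-50960744, plus strand: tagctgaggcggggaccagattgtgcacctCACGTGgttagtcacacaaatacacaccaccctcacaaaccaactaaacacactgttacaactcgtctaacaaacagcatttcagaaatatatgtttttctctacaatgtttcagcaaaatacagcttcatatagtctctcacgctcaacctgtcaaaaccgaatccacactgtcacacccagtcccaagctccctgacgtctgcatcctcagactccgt
CDKN2C, start at 50970245, chr1:50969995-50970244, plus strand: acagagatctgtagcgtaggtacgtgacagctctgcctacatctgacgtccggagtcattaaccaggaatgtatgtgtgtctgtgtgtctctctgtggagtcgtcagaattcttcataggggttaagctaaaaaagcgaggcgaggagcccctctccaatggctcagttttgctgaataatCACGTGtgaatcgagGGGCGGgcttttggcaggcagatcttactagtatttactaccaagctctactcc
CDKN3, chr14:54396757-54396848, plus strand: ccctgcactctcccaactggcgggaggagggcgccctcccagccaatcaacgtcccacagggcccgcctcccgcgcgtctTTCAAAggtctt

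Windows of 250 bases were found for all 7 measured genes, 10 in all because CDKN2C has 3 listed starts and CDKN2A has 2. On either strand, GGGCGG is in 42.6% of the 35116 promoter windows of the RefSeq table, TTTGAA in 13.3% and CACGTG in 6.34%. The CDKN1A window held 4 matches to GGGCGG, beginning 104, 94, 45 and 40 bases upstream of the start, of which the pair nearest the start overlaps by 1 base and lies in a listed CDKN1A exon that is not printed. The CDKN2B window held 2 such matches, 134 and 78 bases upstream. The CDKN2D window also held 2, at 156 and 44 bases, and the CDKN1B window 1, at 71 bases. CDKN2A had 1 match, 37 bases upstream of its start at 21974857. The window of the CDKN2C start at 50970245 held 1, at 54 bases, and that of CDKN3 held 0. CDKN3 was the only measured gene with TTTGAA in a window, 170 bases upstream of its RefSeq start at 54397007. The listed CDKN3 row begins earlier, at 54396849, so the match lies closer to that start. CDKN2C was the only measured gene with CACGTG, 220 bases upstream of the start at 50960745 and 69 bases upstream of the start at 50970245. The window of the remaining CDKN2C start, at 50968706, lies wholly in a listed CDKN2C exon, is not printed, and held 5 matches to GGGCGG. The TATA box TATAAA was in 0 of the 10 windows and in 10.7% of all windows. The same held for 3 E2F-type words: TTTCGCGC, present in 0.439% of all windows, the word TTTGGCGC, present in 0.55%, and the word TTTCCCGC, present in 1.39%, were each in 0 of the 10. These are matches of letters, and binding was not measured.

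CDKN1A (ENSG00000124762.13, chromosome 6, 36676460 to 36687339, plus strand on hg38) was the most abundant inhibitor in both groups. It had 2688, 1895 and 2473 CPM in FIR libraries, against 287, 299.8 and 289.9 CPM in untreated libraries. Every FIR library lay far above every untreated one, and FIR replicate 2 was the lowest of its group. CDKN1A rose 8.05-fold (log2 fold change 3.01, SE 0.11, 95% interval 2.78 to 3.24, adjusted p = 1.3e-11). Its spread was wider in FIR libraries, with a coefficient of variation of 17.4% against 2.3% in untreated libraries. CDKN1A took 0.186% to 0.266% of all reads in FIR libraries and 0.0291% to 0.0307% in untreated libraries. By level per length (RPKM, CPM divided by the listed exon length in kilobases) it ranked 34 of 16311 genes in FIR cells and 388 in untreated cells, with 771 ± 135 RPKM and 95.8 ± 2.21 RPKM (SD, n = 3 each). Its log2 fold change was the 159th highest of all genes.

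CDKN1B (ENSG00000111276.11, chromosome 12, 12715058 to 12722369), whose protein p27 is controlled largely through its degradation, had 70.1, 71.8 and 64.6 CPM in FIR libraries, against 67.2, 72.5 and 72.2 CPM in untreated libraries. The groups overlapped. Its log2 fold change was -0.04 (SE 0.08, 95% interval -0.21 to 0.14, adjusted p = 0.73). A row within its span, AC008115.3, had 45 reads over the FIR group and 48 over the untreated group and shares no exonic base with it.

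CDKN1A therefore stood further above CDKN1B in FIR cells. The ratio of their RPKM was 32.2, 22.2 and 32.2 in FIR libraries, against 3.59, 3.48 and 3.38 in untreated libraries. The groups of this ratio did not overlap. No test of the ratio was run. An exact permutation test of 3 libraries against 3 cannot give a two-sided p below 0.1.

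The INK4 genes changed in opposite directions. CDKN2C (ENSG00000123080.12, chromosome 1, 50960745 to 50974634), which encodes p18, had 2.2, 1.94 and 3.21 CPM in FIR libraries, against 36.8, 32.6 and 29.4 CPM in untreated libraries. All FIR libraries were below all untreated libraries, and reads summed to 117 over the FIR group and 1912 over the untreated group. CDKN2C was 13.4 times lower in FIR cells (log2 fold change -3.74, SE 0.17, 95% interval -4.12 to -3.37, adjusted p = 1.9e-10). Per length it was the most abundant INK4 gene in untreated cells, at 10.9 ± 1.24 RPKM, and the least abundant in FIR cells, at 0.812 ± 0.221 RPKM (SD, n = 3 each).

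CDKN2B (ENSG00000147883.12, chromosome 9, 22002903 to 22009305, minus strand), which encodes p15 and is known as a target of TGF-beta signalling, had 8.32, 9.72 and 5.22 CPM in FIR libraries, against 1.04, 1.67 and 1.75 CPM in untreated libraries. The lowest FIR library lay well above the highest untreated one. CDKN2B rose 5.19-fold (log2 fold change 2.38, SE 0.28, 95% interval 1.79 to 2.96, adjusted p = 4.5e-06). It was scarce in both groups, with 369 reads over the FIR group and 86 over the untreated group, and its level per length was 1.94 ± 0.576 RPKM in FIR cells and 0.372 ± 0.0969 RPKM in untreated cells (SD, n = 3 each).

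CDKN2A (ENSG00000147889.17, chromosome 9, 21967753 to 21995301, minus strand) had 17.6, 24.9 and 20.6 CPM in FIR libraries, against 29.8, 28.4 and 28.5 CPM in untreated libraries. All FIR libraries were below the untreated ones, which lay close together. CDKN2A fell by 0.46 on the log2 scale (SE 0.12, 95% interval -0.72 to -0.20, adjusted p = 0.0061). The gene makes p16 and, from a separate start 20467 bases away with another reading frame, p14ARF, which binds MDM2 and is not a CDK inhibitor. GENCODE 29 lists 14 transcripts for the gene and the table has 1 row, so the values of p16 and p14ARF transcripts cannot be told apart.

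CDKN2D (ENSG00000129355.6, chromosome 19, 10566462 to 10569059, minus strand), which encodes p19, had 6.06, 9.13 and 8.49 CPM in FIR libraries, against 11.6, 9.47 and 11.8 CPM in untreated libraries. The groups came close, with the highest FIR library just under the lowest untreated one. CDKN2D fell by 0.47 on the log2 scale (SE 0.17, 95% interval -0.85 to -0.10, adjusted p = 0.036). The call was lost when any of 4 libraries was left out: FIR replicate 1 (adjusted p = 0.159), FIR replicate 3 (adjusted p = 0.0519), untreated replicate 1 (adjusted p = 0.0858) or untreated replicate 3 (adjusted p = 0.0635).

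CDKN3 (ENSG00000100526.20, chromosome 14, 54396849 to 54420218, plus strand), the CDK2 phosphatase, whose RNA is highest in mitosis in cycling cells, had the largest fold difference of the 7. It had 1.28, 0.648 and 0.817 CPM in FIR libraries, against 32.7, 32.3 and 25.6 CPM in untreated libraries. The groups stood far apart, with 44 reads over the FIR group and 1760 over the untreated group. CDKN3 was 32.5 times lower in FIR cells (log2 fold change -5.02, SE 0.21, 95% interval -5.47 to -4.58, adjusted p = 5.2e-11), the 85th lowest log2 fold change of all genes.

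Ordered by level per length, untreated cells ran CDKN1A, CDKN1B, CDKN3, CDKN2C, CDKN2D, CDKN2A and CDKN2B, at means of 95.8, 27.5, 16.4, 10.9, 7.3, 6.68 and 0.372 RPKM. Neighbours in that order did not overlap between libraries, except CDKN2D (6.3 to 7.88 RPKM) and CDKN2A (6.55 to 6.88 RPKM). FIR cells ran CDKN1A, CDKN1B, CDKN2D, CDKN2A, CDKN2B, CDKN2C and CDKN3, at means of 771, 26.8, 5.25, 4.86, 1.94, 0.812 and 0.499 RPKM. There CDKN2D (4.03 to 6.08 RPKM) and CDKN2A (4.07 to 5.75 RPKM) again overlapped, as did CDKN2C (0.644 to 1.06 RPKM) and CDKN3 (0.353 to 0.7 RPKM). CDKN2C and CDKN3 thus stood above CDKN2A, CDKN2B and CDKN2D in untreated cells and at the bottom of the order in FIR cells.

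In 6 of the 7 genes, all but CDKN1B, the 2 groups of libraries did not overlap. The same was true of 56.9% of all genes. FIR replicate 2 was lowest of its group for CDKN1A, CDKN2C and CDKN3 and highest for CDKN1B, CDKN2A, CDKN2B and CDKN2D, so its position differed from gene to gene. These are bulk libraries, in which fewer cells that express a gene and less RNA per cell cannot be told apart.

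**Figure D2:**
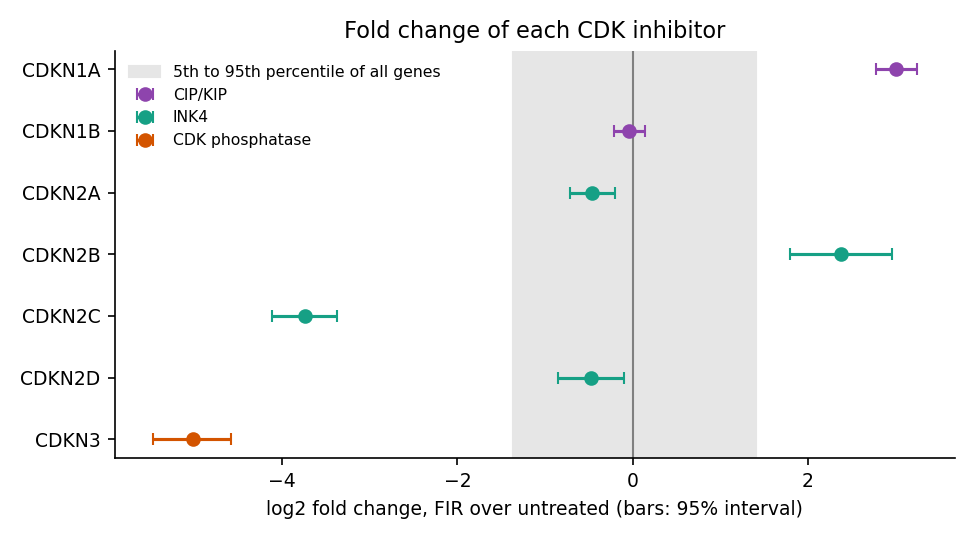
Log2 fold change of each measured inhibitor, FIR over untreated, with its 95% interval from the edgeR fit; the grey band spans the 5th to 95th percentile of all 16311 genes (-1.37 to 1.41). CDKN1A and CDKN2B lie right of the band, CDKN2C and CDKN3 left of it, and CDKN1B, CDKN2A and CDKN2D inside it.

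Set against each other, the measured INK4 genes had a mean log2 fold change of -0.58 and the measured CIP/KIP genes one of 1.49. In each library the mean log2 CPM of the 4 INK4 genes minus that of the 2 CIP/KIP genes was taken. This difference was -6.00, -5.48 and -5.74 in FIR libraries, against -3.65, -3.71 and -3.63 in untreated libraries. The FIR libraries were all lower, and the contrast was -2.07 on the log2 scale, with no test because the genes were chosen as a list. Neither family moved as a unit. Without CDKN1A the CIP/KIP value is that of CDKN1B, -0.04. Without CDKN2B the mean INK4 log2 fold change is -1.56, and without CDKN2C it is 0.48, so the sign of the INK4 mean rests on CDKN2C.

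Counted per length, CIP/KIP RNA summed to 909, 649 and 836 RPKM in FIR libraries, against 120.3, 127 and 123 RPKM in untreated libraries. INK4 RNA summed to 10.9, 14.9 and 12.8 RPKM in FIR libraries, against 27.0, 24.1 and 24.6 RPKM in untreated libraries. The CIP/KIP and INK4 sums moved in opposite directions without overlap. INK4 sums, here and below, count the whole CDKN2A row, in which p14ARF transcripts cannot be set apart. The ratio of CIP/KIP to INK4 RNA was 83.3, 43.6 and 65.5 in FIR libraries, against 4.45, 5.25 and 5.0 in untreated libraries. On the log2 scale the INK4 to CIP/KIP ratio of summed RPKM differed by -3.66 between the groups, more than the -2.07 of the mean of genes, because a sum is weighted towards the abundant CDKN1A and CDKN2C. CDKN1A alone made up 95.8%, 93.5% and 95.5% of the summed RPKM of the 6 CIP/KIP and INK4 genes in FIR libraries, against 63.9%, 65.2% and 64.3% in untreated libraries.

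Within the INK4 family the composition shifted. CDKN2C made up 6.45% ± 2.01 of INK4 RPKM in FIR cells and 43.2% ± 3.19 in untreated cells. CDKN2B made up 15.2% ± 4.53 in FIR cells and 1.49% ± 0.457 in untreated cells. CDKN2A and CDKN2D, which both fell slightly in level, took larger shares: 37.7% ± 0.761 and 40.7% ± 3.66 in FIR cells, against 26.5% ± 0.919 and 28.9% ± 2.93 in untreated cells (SD, n = 3 each throughout).

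**Figure D3:**
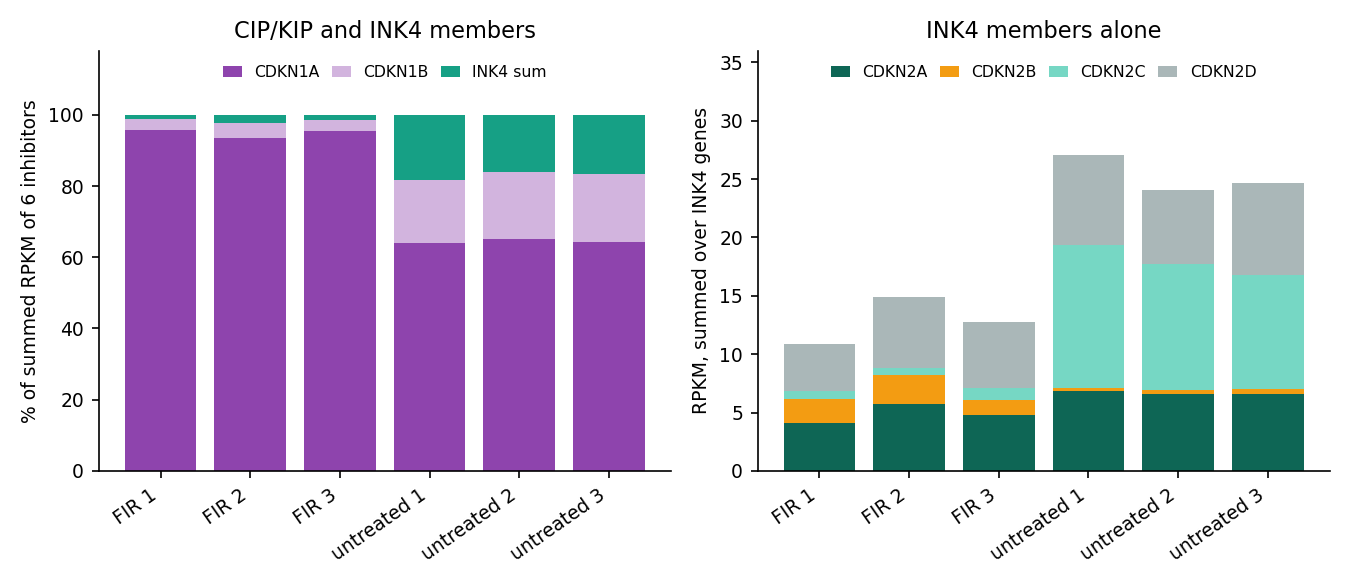
Left, share of the summed RPKM of CDKN1A, CDKN1B and the 4 INK4 genes in each library, in percent; right, RPKM of the INK4 genes stacked per library. CDKN1A fills 93.5% to 95.8% of the FIR bars and 63.9% to 65.2% of the untreated bars, and the CDKN2C segment all but disappears from the FIR bars on the right.

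CDKN2A and CDKN2B are neighbours on the short arm of chromosome 9, 7602 bases apart, and the long non-coding RNA CDKN2B-AS1 (ANRIL, chromosome 9, 21994139 to 22128103) runs against both on the opposite strand. ANRIL is known for binding Polycomb proteins that silence this locus. CDKN2B-AS1 had 1, 7 and 0 reads in FIR libraries, against 40, 38 and 21 reads in untreated libraries. It was low in both groups and lower in every FIR library (log2 fold change -3.28, SE 0.63, adjusted p = 0.0005). The 3 genes of the locus thus moved apart: CDKN2B up, CDKN2A slightly down, CDKN2B-AS1 down. CDKN2B lies inside the span of CDKN2B-AS1 but shares no exonic base with it, whereas CDKN2A shares 668 exonic bases, 15.4% of its exons. The strand setting of the counting is not given in the sources used here, so reads from that shared stretch may be missing or misplaced for CDKN2A and CDKN2B-AS1.

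**Figure D4:**
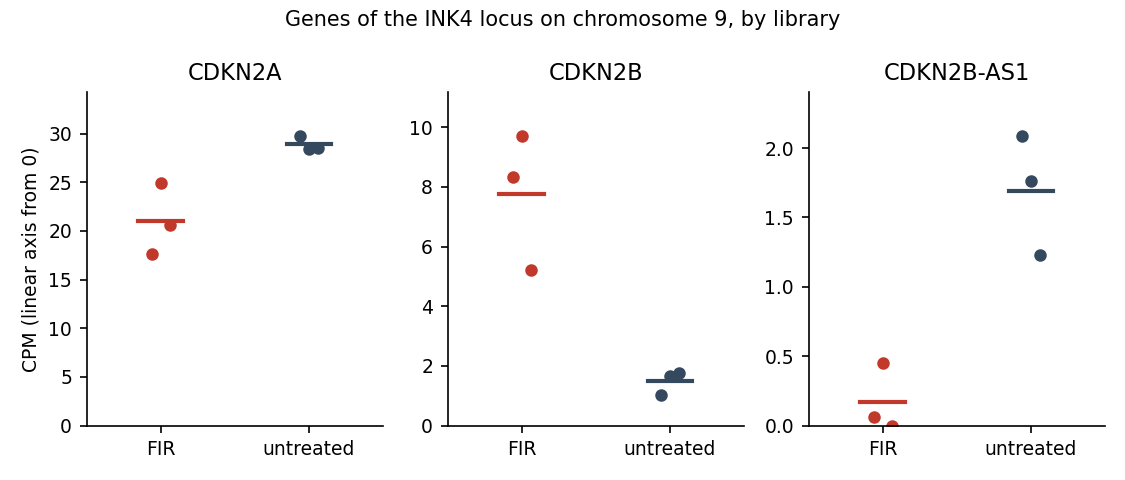
CPM of the 3 genes of the INK4 locus by library on linear axes from 0, with a separate scale for each gene; points are libraries and bars are means of 3. FIR libraries lie below untreated libraries for CDKN2A (17.6 to 24.9 against 28.4 to 29.8 CPM) and CDKN2B-AS1, and above them for CDKN2B (5.22 to 9.72 against 1.04 to 1.75 CPM).

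Other rows close to the inhibitors had log2 fold changes under 1 in size. FAF1, a FAS-associated protein gene 478 bases from CDKN2C on the opposite strand, fell by 0.59 on the log2 scale (SE 0.10), with 43.1 CPM in FIR cells and 65.1 CPM in untreated cells on average. KRI1, 425 bases from CDKN2D, fell by 0.81 (SE 0.08), while AP1M2 on its other side rose by 0.40 (SE 0.07). CNIH1, 3343 bases from CDKN3, fell by 0.35 (SE 0.08), and APOLD1, 3548 bases from CDKN1B, was not called (log2 fold change 0.15, adjusted p = 0.56). No row overlapped or lay within 10 kb of CDKN1A.

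The kinases and cyclins on which the inhibitors act were mostly lower in FIR cells. Of 13 listed genes 11 had a row, and 9 fell, 0 rose and 2 did not pass, with a median log2 fold change of -1.89 where all genes had 0.01. Over all genes 23.4% were called lower and 25.4% higher. The mitotic cyclin gene CCNB2 averaged 1.55 ± 0.202 CPM in FIR cells and 59.7 ± 7.37 CPM in untreated cells, and CCNA2, the cyclin of replication and early mitosis, 2.29 ± 0.825 CPM in FIR cells and 57.4 ± 13.2 CPM in untreated cells (SD, n = 3 each). CDK2, the main kinase held by p21 and p27, fell by 1.89 (SE 0.13, adjusted p = 2.3e-08), with 14.0 ± 2.26 CPM in FIR cells and 52.1 ± 7.91 CPM in untreated cells (SD, n = 3 each). The INK4 partners did not pass: CDK4 had a log2 fold change of -0.17 (95% interval -0.34 to 0.01, adjusted p = 0.1) and CDK6, scarce at 3.05 CPM in FIR cells and 1.89 CPM in untreated cells, one of 0.68 (95% interval 0.02 to 1.34, adjusted p = 0.084).

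Set beside their kinases per length, INK4 RNA was 0.32, 0.39 and 0.335 times the sum of CDK4 and CDK6 in FIR libraries, against 0.621, 0.579 and 0.642 times in untreated libraries. CIP/KIP RNA was 146, 126 and 164 times the sum of CDK1 and CDK2 in FIR libraries, against 1.81, 2.09 and 2.77 times in untreated libraries. The first ratio was lower and the second higher in every FIR library. Both parts of the second ratio moved. On average the sum of CDK1 and CDK2 was 5.48 RPKM in FIR cells and 57.2 RPKM in untreated cells. CDK1, given as part of this sum, was most of it in untreated cells, at 43.8 RPKM, against 1.87 RPKM in FIR cells. Its log2 fold change was -4.55 (SE 0.15). All of these ratios are of RNA, and protein was not measured.

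Of 13 listed pocket protein and E2F genes, which act downstream of these kinases, 12 had a row, and 8 fell, 2 rose and 2 did not pass (median log2 fold change -0.38), where 23.4% of all genes fell and 25.4% rose. E2F8, a repressor E2F, averaged 0.0821 ± 0.0933 CPM in FIR cells and 12.7 ± 2.85 CPM in untreated cells, and E2F1, an activator, 5.12 ± 1.54 CPM in FIR cells and 84.5 ± 24.4 CPM in untreated cells (SD, n = 3 each). RBL2, the pocket protein p130 of resting cells, rose by 0.81 (SE 0.08) and was named after its value was seen. The other listed pocket protein genes, named beside it, were called lower: RB1 by 0.31 (SE 0.10) and RBL1 by 1.71 (SE 0.15).

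Genes whose proteins help degrade p21, p27 or p57, or bind the ligases that do so, were also mostly lower. All 14 listed had a row, and 10 fell, 2 rose and 2 did not pass (median log2 fold change -0.49), beside 23.4% lower and 25.4% higher among all genes. CDC20, an activator of the anaphase-promoting complex, averaged 1.12 ± 0.573 CPM in FIR cells and 103 ± 21.8 CPM in untreated cells, and DTL, which directs p21 to a CUL4 ligase, 0.737 ± 0.179 CPM in FIR cells and 40.1 ± 9.57 CPM in untreated cells (SD, n = 3 each). SKP2, which recognises p27 for degradation, fell by 1.38 (SE 0.11, adjusted p = 9.2e-08), with 17.5 ± 1.51 CPM in FIR cells and 45.6 ± 4.94 CPM in untreated cells (SD, n = 3 each). The SKP2 libraries of the 2 groups did not overlap, where those of CDKN1B did. The groups also did not overlap in 56.9% of all genes, and in 13 of the 14 genes of this list, SKP2 among them.

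Of 19 listed transcription regulators of CIP/KIP genes 18 had a row, and 7 rose, 1 fell and 10 did not pass (median log2 fold change 0.16). The 8 calls together are a share near the 48.7% called among all genes. They were mostly higher, where 25.4% of all genes were called higher and 23.4% lower. MDM2, a ubiquitin ligase, had 713, 534 and 563 CPM in FIR libraries, against 159, 186 and 163 CPM in untreated libraries, and rose by 1.83 (SE 0.10, adjusted p = 1.8e-09). MDM2 was lowest of the FIR group in replicate 2, as was CDKN1A, which rose, and as were CDKN2C and CDKN3, which fell. KLF6, a zinc finger activator of CDKN1A, rose by 2.21 (SE 0.11), with 53.8 ± 0.45 CPM in FIR cells and 11.7 ± 1.38 CPM in untreated cells (SD, n = 3 each).

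Of 15 listed regulators of INK4 genes, all with a row, 5 rose, 5 fell and 5 did not pass (median log2 fold change -0.02), shares not far from the 25.4% of all genes called higher and 23.4% called lower. EZH2, the methyltransferase of Polycomb repressive complex 2, fell by 2.22 (SE 0.11, adjusted p = 5.7e-10), with 10.7, 10.1 and 11.4 CPM in FIR libraries, against 53.0, 53.0 and 43.8 CPM in untreated libraries. ID1, an inhibitor of the E proteins that activate CDKN2A, rose by 3.72 (SE 0.48, adjusted p = 1.4e-05), but its FIR libraries spread from 14.7 to 54.6 CPM, against 0.759 to 5.37 CPM in untreated libraries. Of 11 listed kinases and partners of CIP/KIP proteins, all with a row, 3 rose, 4 fell and 4 did not pass (median log2 fold change -0.20), again not far from those shares of all genes. GADD45A, a stress protein that binds p21, rose by 2.60 (SE 0.13), and STMN1, the microtubule regulator bound by p27, fell by 3.44 (SE 0.11).

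**Figure D5:**
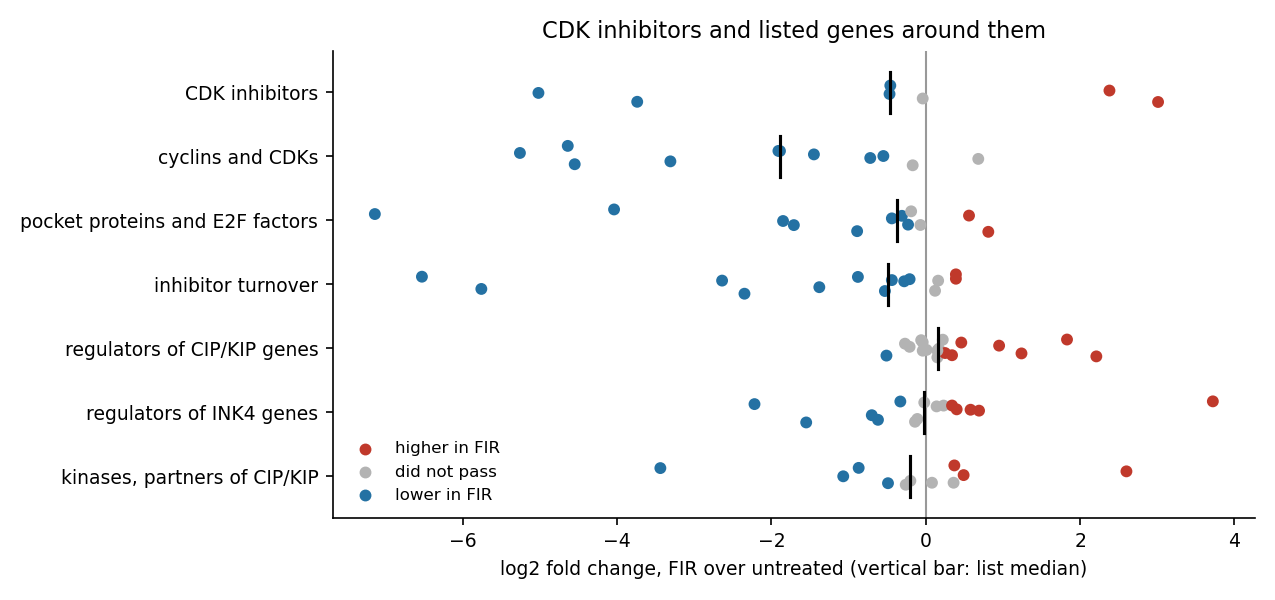
Log2 fold change, FIR over untreated, of each measured gene in the CDK inhibitor list and 6 lists around it, 1 point per gene coloured by call, with a black bar at the list median; vertical scatter only separates points. The cyclin and CDK list has the lowest median, -1.89, and the inhibitors are spread to both sides of 0.

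The genes whose profiles over the 6 libraries lay nearest to those of the inhibitors were sought among the 14636 genes that averaged 1 CPM or more, by Euclidean distance between log2 CPM values centred on each gene's mean. A gene can come near only with a similar difference in log2 CPM between the groups. Library-to-library spread within the groups also adds to each distance. For CDKN1A they were MAML2, a Notch coactivator (distance 0.367), IL36RN, the interleukin-36 receptor antagonist (0.414), and SRGAP3, a GTPase-activating protein (0.414). IL36RN averaged 14.5 CPM in FIR cells and 2.09 CPM in untreated cells. For CDKN2B they were PCDHB16, a clustered protocadherin (0.505), the row AC009690.1 (0.514) and the long non-coding RNA FIRRE (0.531). For CDKN2C they were MTFR2, a mitochondrial fission regulator (0.211), PSRC1, a spindle protein (0.436), and LRG1, a secreted glycoprotein (0.46). For CDKN3 they were FAM72C (0.26), BUB1 (0.305) and PLK1 (0.353), the last 2 being mitotic kinases, with BUB1 at 1.32 CPM in FIR cells and 44.3 CPM in untreated cells and PLK1 at 3.34 CPM in FIR cells and 92.5 CPM in untreated cells. FAM72C has near-identical copies, so its own value is uncertain. It also had only 1 read over the FIR group, where its log2 CPM is set largely by the prior count. Its fitted log2 fold change was -7.04, against -5.02 for CDKN3.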

How the data were processed

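RNA sequencing of 3 FIR and 3 untreated LNCaP libraries is held in 1 table, whose columns were matched to samples by name, with 0 sample columns left over. Raw read counts for each gene were deposited by the authors. Per the file headers, the table also holds the authors' own log2 values (fold change, CPM, RPKM) and p-values, raw and adjusted, which give no result here. The submitters' processing notes list hg38, edgeR 3.20.8, Subread 1.6.2, featureCounts, STAR 2.5 and bcl2fastq without saying what each did. The sources used here do not give the annotation release, the strand setting or any filter; the third-highest CPM of a gene was never below 0.605.

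Counts were scaled by TMM and fitted in edgeR 4.0.16 (R 4.3.3) by glmQLFit and glmQLFTest with group as sole term, adjusting p-values by Benjamini-Hochberg over 16311 genes; filterByExpr (minimum count 10) removed 0 genes. SE was taken as |log2 fold change| over the root of the F statistic. RPKM was computed from TMM-scaled CPM and listed exon lengths, and log2 CPM uses a prior count of 2. The fit was tested on simulated counts. Alternatives tried were other scalings (RLE, upper quartile, library size), other tools (DESeq2 1.42.0 and limma-voom from limma 3.58.1), no filter, 1 CPM in 3 libraries, a replicate block and leaving out each library. No pair of libraries in a group agreed within sampling noise.

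The members and gene lists were chosen with earlier results of these data known. Named from each list are its 2 called genes with the largest log2 fold changes in size, if averaging 1 CPM or more, plus MDM2, SKP2, CDK2, CDK4 and CDK6; 1 further gene the rule names is not reported here. Rows within 10 kb of a member are named, as are the 3 nearest profiles for CDKN1A and for members called with a log2 fold change of 1 or more in size.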

Additional observations from a re-analysis of the deposited data

How the results depend on the processing

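In all 14 alternatives 2 inhibitors were higher and 3 or 4 lower, and the calls of CDKN1A, CDKN2A, CDKN2B, CDKN2C and CDKN3 were kept with their direction. Over these alternatives the log2 fold change ran from 2.90 to 3.14 for CDKN1A, from 2.17 to 2.59 for CDKN2B, from -3.98 to -3.61 for CDKN2C, from -5.35 to -4.83 for CDKN3 and from -0.60 to -0.35 for CDKN2A, whose adjusted p stayed at or below 0.0321. CDKN2D lost its call without FIR_40Gy replicate 1 or 3 or untreated replicate 1 or 3, with log2 fold changes over the 6 left-out libraries from -0.59 to -0.31; fewer libraries entered these fits. CDKN1B, not called in any of them, ran from -0.0807 to 0.0060 there, and was above 0 at 0.0060 only without FIR_40Gy replicate 3. The INK4 minus CIP/KIP contrast ran from -2.20 to -1.95 with a library left out and was -3.66 as the log2 ratio of summed RPKM. Calls over all genes ran from 6769 to 8031. Adding a replicate block gave 3988 higher and 3668 lower genes and changed no call among the inhibitors. The correlations between deviations of libraries sharing a number were 0.032, -0.054 and -0.071, so little deviation was shared. This check cannot show whether the cultures were paired, since paired cultures need not share deviations. Library-size scaling moved the median of all genes to -0.05. CDKN2B, CDKN2B-AS1 and CDKN3 rest on few reads in 1 group, which limits how finely their folds can be read.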
